A study of Mus musculus with 10 samples.

Results

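Voltage-gated sodium, calcium and HCN channel genes were measured in injured mouse brain, 7 days after controlled cortical impact. In this injury model a rigid tip is driven into the cortex on a single side. The 38 genes were those whose symbol named a sodium channel subunit (Scn), a calcium channel alpha1, alpha2delta, beta or gamma subunit (Cacna1, Cacna2d, Cacnb, Cacng) or an HCN channel (Hcn) and that had a row of the array table to themselves, out of 30142 genes measured in that way. Scn2a entered under its older symbol. A further 6 genes that fit the symbols were not analysed here. Each of the 38 genes had 1 row.

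Ipsilateral tissue came from the site of a 2 mm impact (5 arrays), and contralateral tissue from the corresponding region of the other hemisphere (5 arrays). All groups were thus injured animals, and whether the contralateral side itself had changed could not be measured without sham-operated or unimpacted mice. The labels describe purchased adult male and female mice of 8 to 12 weeks, name no strain, and call the samples biological replicates. Yet Xist had a signal of only 4.53 to 4.67 on the 10 arrays and the Y-linked gene Uty one of 8.60 to 8.88, so the arrays did not show both sexes.

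Sodium channels carry the rising phase of the action potential and are packed at the axon initial segment and the nodes of Ranvier, where pore-forming alpha subunits are joined by beta subunits. Calcium channels couple the action potential to transmitter release, dendritic signalling and burst firing, and their alpha1 pores are assembled with alpha2delta and beta subunits. Most brain gamma subunits are TARPs, which escort AMPA-type glutamate receptors rather than calcium channels. HCN channels open on hyperpolarisation and set resting potential and dendritic integration.

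The deposited values are log2 signals, and a difference of 1 between sides is a 2-fold difference. The ipsilateral and contralateral arrays were compared in limma, with p-values adjusted over all 30142 genes and called under 0.05. Array medians over all rows lay between 4.71 and 4.84, higher on every ipsilateral array (4.79 to 4.84) than on any contralateral one (4.71 to 4.77). Over the 30142 genes the medians overlapped, at 5.52 to 5.65 ipsilaterally and 5.48 to 5.56 contralaterally. An offset between arrays cannot be told apart from side. General neuron markers were high on all arrays, with a mean of 10 genes between 13.06 and 13.50 ipsilaterally and between 13.40 and 13.62 contralaterally. Choroid plexus and ependymal markers differed widely within both sides. Their mean over 5 genes was 10.55 and 8.51 on ipsilateral arrays 2 and 4 and between 5.81 and 6.47 on the other ipsilateral arrays, and it was 11.33 and 7.95 on contralateral arrays 2 and 4 and between 5.68 and 6.13 on the other contralateral arrays. Contralateral array 4 also had the highest thalamic marker mean of its side (8.56, the others 7.58 to 7.96) and the lowest oligodendrocyte marker mean (9.02, the others 9.61 to 10.03).

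Channel genes that differed by side were lower at the impact site. Of the 38 genes, 10 were lower ipsilaterally, at least 1 of every subunit class except the L-type alpha1 genes, and 0 were higher in limma. Among all genes 4.33% were lower and 1.22% higher. Higher genes made up 22% of all calls, and 8.13% when arrays were centred on their medians over all rows, where 11 channel genes were lower. Of the 25 channel genes with a mean above 8, 9 were lower, and 11.6% of all genes that bright were lower and 1.88% higher. At an unadjusted p under 0.05, 17 of the 38 genes differed, beside 21.3% of all genes. Of these, 2 channel genes (Scn3b and Hcn4) were higher, where 3020 of the 30142 genes were. The median log2 fold change of the 38 genes was 0.01, and that of all genes 0.02. The other 28 genes were divided between 8 negative and 20 positive fold changes. Groups did not overlap for 6 channel genes (Scn1a, Scn8a, Cacna1a, Cacnb4, Cacng2 and Hcn2), and for 7.25% of all genes. In bulk tissue, fewer cells of a type and less RNA per cell cannot be told apart.

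**Figure D1:**
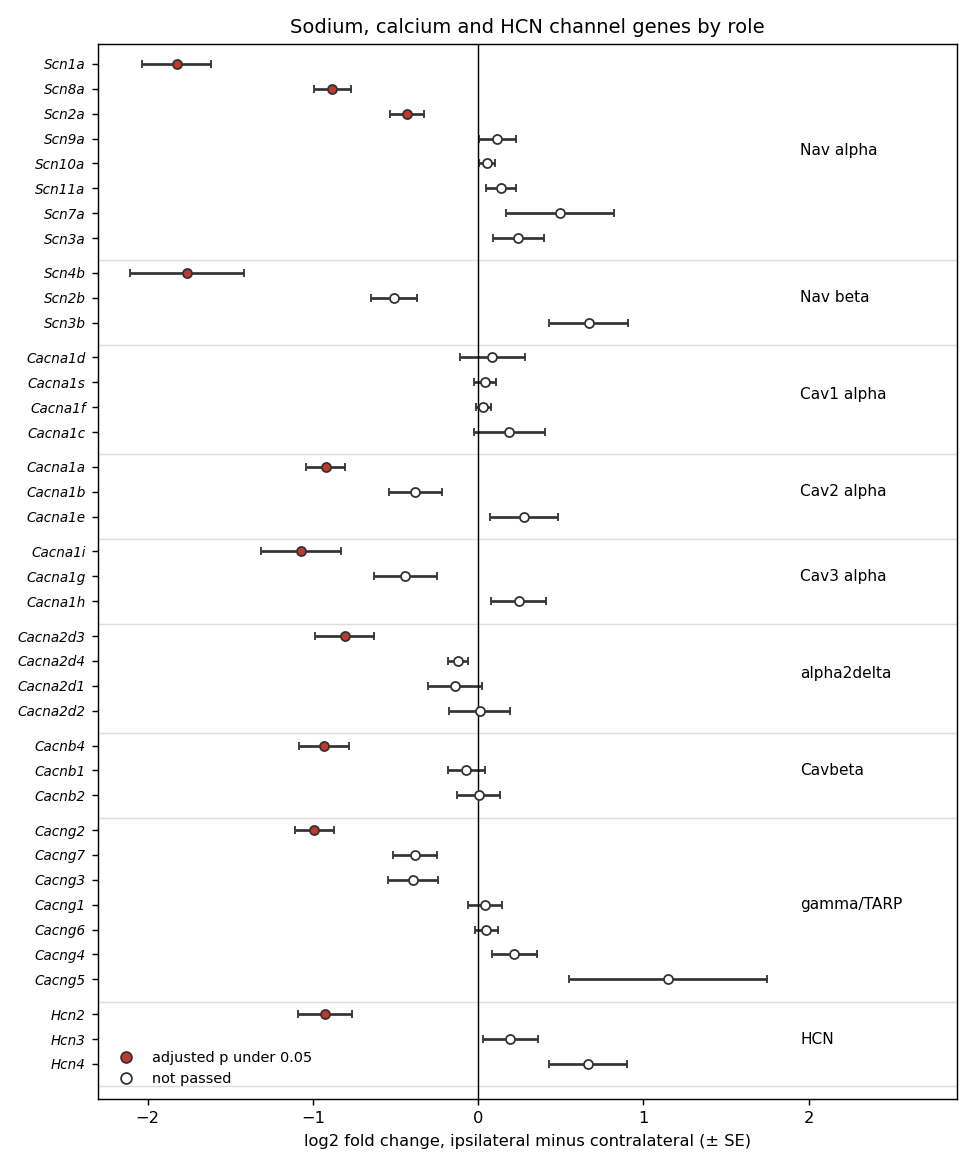
Log2 fold change (ipsilateral minus contralateral, horizontal axis) of all 38 channel genes, grouped by role, with the SE of the fit as error bars. Filled points mark the 10 genes with an adjusted p under 0.05, all of them left of 0, from Scn1a at -1.82 to Scn2a at -0.43.

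Scn1a fell steeply. It encodes a sodium channel pore on which fast-spiking interneurons depend heavily, and its loss causes Dravet epilepsy in humans. Its log2 signal was 10.93, 10.77, 10.95, 10.22 and 10.59 on ipsilateral arrays 1 to 5, against 12.80, 12.64, 12.62, 11.75 and 12.77 on contralateral arrays 1 to 5. Every ipsilateral array lay below every contralateral one, and contralateral array 4 was the lowest of its side by a wide gap. Scn1a fell by 1.82 on the log2 scale (SE 0.21, adjusted p = 0.00145), a 3.54-fold lower signal.

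Scn8a, the main sodium channel of mature nodes of Ranvier and of the distal axon initial segment, also fell. It stood at 12.26, 12.63, 12.43, 12.05 and 12.08 ipsilaterally, against 13.35, 13.13, 13.20, 13.05 and 13.14 contralaterally. The groups were separate, with a closely spaced contralateral side. The log2 fold change was -0.88 ± 0.11 (SE, adjusted p = 0.00197), a 1.85-fold lower signal.

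Scn2a, which serves the proximal initial segment of excitatory neurons and unmyelinated axons, differed least of the called genes. Its signal was 13.82, 14.20, 14.32, 14.04 and 13.96 ipsilaterally, against 14.58, 14.31, 14.51, 14.69 and 14.40 contralaterally. Ipsilateral array 3 lay just above contralateral array 2, so the groups overlapped. The log2 fold change was -0.43 ± 0.10 (SE, adjusted p = 0.0393). This call held in 7 of 21 alternative fits at the threshold of 0.05, the fewest of the 10 calls. When single arrays were left out, it held in 2 of 10 fits (adjusted p up to 0.102), as many as for Cacna1i. It did not hold with quantile scaling (0.0904).

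The promoters of a steeply lower (Scn1a), a moderately lower (Scn8a) and an HCN gene (Hcn2) are shown. They were picked because the base composition of Scn1a differs from that of the others while all of them were lower at the impact site. The windows run from 250 bases before to 50 after the annotated start, on the gene's own strand, in the RefSeq annotation of GRCm38.p6, and lie at chr2:66440788-66441087 (- strand), chr15:100870395-100870694 (+ strand) and chr10:79716384-79716683 (+ strand). Of the listed starts of Scn8a, the most upstream is given, and the promoter of the other has a GC content of 53.3%. Capitals mark CCAAT, the GC box GGGCGG or the EGR-type sequence GCGGGGGCG on either strand, and the last of these overlaps GC boxes in Hcn2.
Scn1a: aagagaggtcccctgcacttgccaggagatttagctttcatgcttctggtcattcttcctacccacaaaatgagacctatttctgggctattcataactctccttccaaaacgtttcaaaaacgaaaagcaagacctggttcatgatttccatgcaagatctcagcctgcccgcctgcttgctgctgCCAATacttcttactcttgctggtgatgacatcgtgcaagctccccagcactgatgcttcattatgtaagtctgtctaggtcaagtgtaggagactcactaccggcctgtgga
Scn8a: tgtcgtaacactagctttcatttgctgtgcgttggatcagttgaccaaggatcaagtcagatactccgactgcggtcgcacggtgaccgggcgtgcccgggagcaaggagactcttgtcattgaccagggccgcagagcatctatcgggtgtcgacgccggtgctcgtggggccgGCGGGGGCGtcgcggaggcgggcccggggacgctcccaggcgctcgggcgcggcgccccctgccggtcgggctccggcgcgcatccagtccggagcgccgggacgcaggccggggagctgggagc
Hcn2: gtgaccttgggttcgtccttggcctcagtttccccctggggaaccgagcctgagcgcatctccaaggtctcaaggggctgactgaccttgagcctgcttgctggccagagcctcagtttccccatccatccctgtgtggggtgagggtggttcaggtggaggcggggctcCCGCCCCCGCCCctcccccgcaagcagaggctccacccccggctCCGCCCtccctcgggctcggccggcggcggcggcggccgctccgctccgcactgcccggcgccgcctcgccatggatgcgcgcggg
GC content was 47.3% in Scn1a, 70.0% in Scn8a and 72.3% in Hcn2, against a median of 52.7% over 32851 promoters of the table.

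Sequences were found for 29 of the 38 genes (39 promoters), and for 9 of the 10 lower genes (13 promoters), whose GC content ran from 33.0% to 81.3%. The cAMP response element TGACGTCA occurred in 0 of the 39, and in 1.79% of all promoters of the same length. GGGCGG was in 16 of the 39 (41.0%) and in 35.7% of all promoters, and in 3 of the 13 of lower genes. CCAAT was in 9 of the 39 (23.1%) against 37.4% of all, and GCGGGGGCG in 5 (12.8%) against 2.91%, of which 2 belonged to lower genes. TATAAA was in 2 (5.13%) against 13.6%, CACGTG in 0 against 7.15%, and GCGTGGGCG in 1 (2.56%) against 0.61%. The median GC content of the 39 was 59.3%, against 52.7% of all promoters, and its part in these shares was not tested. None of the searched sequences was common to all 9 lower genes with a promoter in the table.

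**Figure D2:**
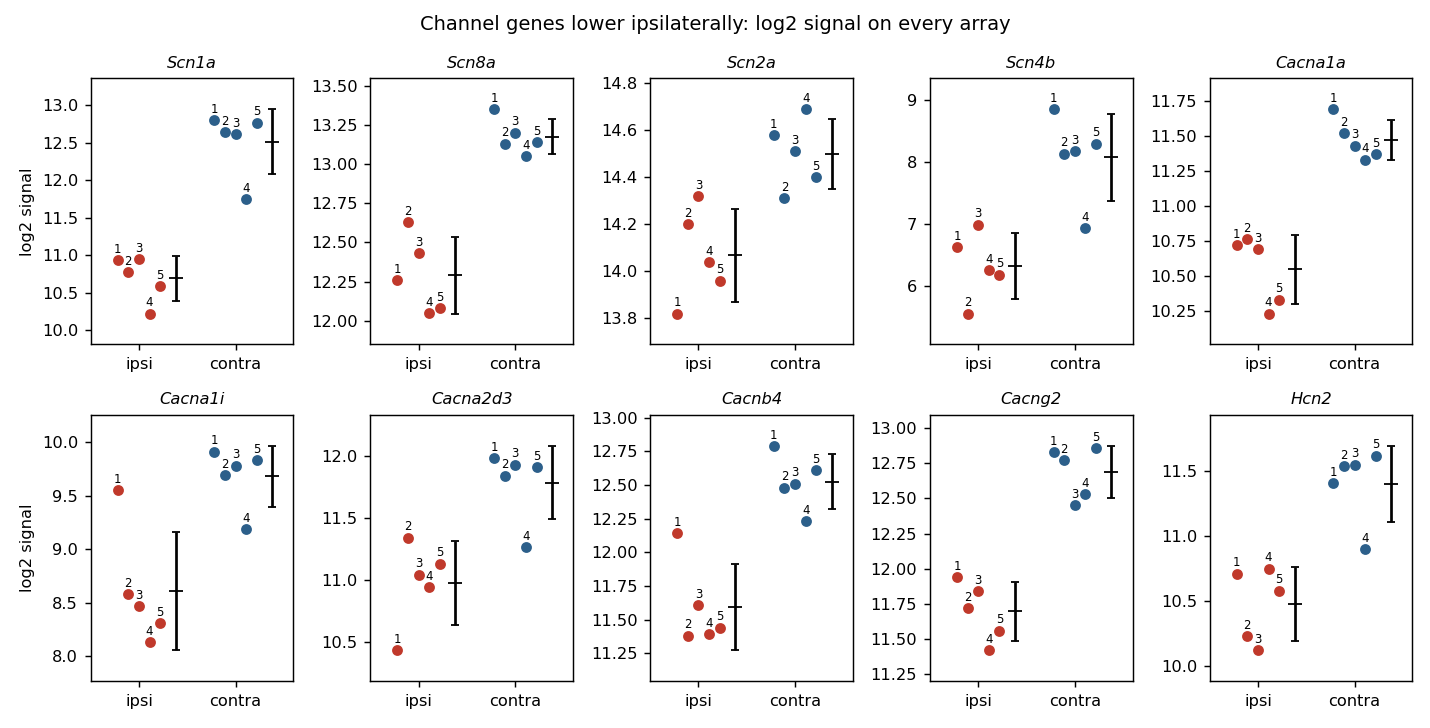
Log2 signal (vertical axis, a scale of its own in each panel) of the 10 channel genes called lower, on the 5 ipsilateral arrays (left) and the 5 contralateral arrays (right), with the array numbers and the mean ± SD in black. Contralateral array 4 is the lowest of its side in 8 of the 10 genes.

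The remaining alpha subunits did not pass. Scn3a, the channel of the embryonic and early postnatal brain, ranged between 9.01 and 9.68 ipsilaterally and between 8.90 and 9.46 contralaterally. The sides overlapped, with ipsilateral arrays 1 and 3 above every contralateral one, and the log2 fold change was 0.24 ± 0.16 (SE, adjusted p = 0.413). Scn7a, a sodium-sensing channel of glia, had a fold change of 0.49 ± 0.33, with ipsilateral values spread between 6.23 and 8.19 and contralateral ones between 6.27 and 7.24. The sensory neuron channels Scn9a, Scn10a and Scn11a had fold changes of 0.12, 0.05 and 0.14. Scn10a and Scn11a had means of 4.34 and 3.90, dimmer than the median row of any array, and no detection call is at hand for them. The 3 measured markers of sensory ganglion neurons averaged between 4.84 and 5.20 ipsilaterally and between 4.93 and 5.03 contralaterally.

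Scn1a, Scn2a, Scn3a, Scn7a and Scn9a are neighbours in a cluster on chromosome 2, and only Scn1a and Scn2a of the cluster passed the test. To ask whether alpha subunits of the brain changed unequally, the log2 difference between 2 genes was formed on each array and compared between sides. These differences do not change when an array is rescaled by a constant. The comparison covered 15 pairs in 4 families, with exact two-sided permutation tests over the 252 splits of the arrays, whose smallest p is 0.00794, adjusted over the 15 pairs. Among calcium channel genes, only the family of Cacna1a, Cacna1b and Cacna1e was compared. Pairs share genes and reuse the array values behind the fold changes, so they are no independent support for those.

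Scn1a was lower at the impact site relative to each of the other alpha subunits of the brain. Scn1a minus Scn3a was 1.37 ± 0.14 ipsilaterally and 3.43 ± 0.64 contralaterally (SD, n = 5 each), a difference of -2.07 with no overlap (exact permutation p = 0.00794, adjusted 0.0198). Scn1a minus Scn8a differed by -0.94 (adjusted exact p = 0.0198), and Scn1a minus Scn2a by -1.39 (adjusted exact p = 0.0255). Scn8a in turn was lower relative to Scn2a (-0.45, adjusted exact p = 0.0255) and to Scn3a (-1.13, adjusted exact p = 0.0198), and Scn2a relative to Scn3a (-0.67, adjusted exact p = 0.0198). The mean changes of the 4 genes thus ran in order from Scn1a through Scn8a and Scn2a to Scn3a. The sides overlapped for Scn1a minus Scn2a and for Scn8a minus Scn2a.

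Of 3 beta subunits, Scn4b was lower. Scn4b forms a disulfide bond with the pore and promotes the resurgent sodium current of fast-firing neurons. It stood at 6.63, 5.55, 6.99, 6.25 and 6.18 ipsilaterally, against 8.86, 8.14, 8.18, 6.93 and 8.30 contralaterally. The sides overlapped only through contralateral array 4, which lay below ipsilateral array 3. Scn4b fell by 1.76 on the log2 scale (SE 0.35, adjusted p = 0.0154), a 3.39-fold lower signal.

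Scn2b, the neighbouring beta subunit gene on chromosome 9 and also disulfide-linked to the pore, stood at 11.85, 12.41, 12.74, 12.29 and 12.17 ipsilaterally, against 12.90, 12.61, 12.87, 12.77 and 12.85 contralaterally. All ipsilateral arrays except array 3 were below the contralateral side, and the fold change of -0.51 ± 0.14 (SE) did not pass (adjusted p = 0.0637, and 0.0147 without ipsilateral array 3). Scn2b passed in 1 of 10 fits without 1 array (adjusted p up to 0.145). Scn3b, which binds the pore non-covalently, pointed the other way, at 11.64, 12.14, 11.94, 11.72 and 11.52 ipsilaterally, against 10.65, 10.93, 11.33, 11.99 and 10.72 contralaterally. Contralateral array 4 alone reached into the ipsilateral range. The fold change of 0.67 ± 0.24 (SE) did not pass (adjusted p = 0.137), and without contralateral array 4 it was 0.88 and passed (0.0139). Scn3b passed in 1 of 10 fits without 1 array (adjusted p up to 0.270).

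The beta subunits changed unequally in all 3 pairs. Scn4b minus Scn3b was -5.47 ± 0.66 ipsilaterally and -3.04 ± 1.24 contralaterally (SD, n = 5 each), a difference of -2.43 (exact permutation p = 0.0238, adjusted 0.0255). Scn4b minus Scn2b differed by -1.25 and Scn2b minus Scn3b by -1.18 (adjusted exact p = 0.0255 for each).

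Among the calcium channel pores, Cacna1a of the P/Q type was lower. It carries most of the calcium entry for fast release at mature central synapses and is the gene of the tottering mouse. Cacna1a stood at 10.72, 10.76, 10.69, 10.23 and 10.33 ipsilaterally, against 11.69, 11.52, 11.43, 11.33 and 11.37 contralaterally. The sides were clearly separate, and the log2 fold change was -0.92 ± 0.12 (SE, adjusted p = 0.00197), a 1.89-fold lower signal.

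The other presynaptic and dendritic pores of this branch did not pass. Cacna1b, the N-type channel, had a fold change of -0.38 ± 0.16 (SE, adjusted p = 0.204), with 9.84 to 10.63 ipsilaterally and 10.33 to 10.81 contralaterally. Cacna1e, the R-type channel, stood at 12.73, 13.61, 13.44, 13.02 and 13.06 ipsilaterally, against 12.69, 12.70, 12.89, 13.57 and 12.63 contralaterally. Contralateral array 4 was again far from its side, and the fold change was 0.28 ± 0.21 (SE, adjusted p = 0.492). Relative to Cacna1b and Cacna1e, Cacna1a was lower ipsilaterally (-0.54 and -1.20, adjusted exact p = 0.0255 for each), and so was Cacna1b relative to Cacna1e (-0.66, adjusted exact p = 0.0198).

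Cacna1i, a slowly gated T-type channel used in burst firing, was the lower gene of its class. It stood at 9.55, 8.58, 8.47, 8.13 and 8.31 ipsilaterally, against 9.91, 9.69, 9.78, 9.19 and 9.83 contralaterally. Ipsilateral array 1 lay inside the contralateral range and the other ipsilateral arrays below it. The fold change was -1.07 ± 0.24 (SE, adjusted p = 0.0298), a 2.10-fold lower signal. The call ended in 8 of the 10 fits without 1 array (adjusted p up to 0.0825), holding without ipsilateral array 1 or contralateral array 4.

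The T-type channels Cacna1g and Cacna1h did not pass, at -0.44 ± 0.19 and 0.24 ± 0.17 (SE). For Cacna1g, ipsilateral array 1 was the highest of all 10 arrays (9.08) while the other ipsilateral arrays, at 7.85 to 8.39, lay below the contralateral range of 8.64 to 8.88. Without that array the fold change of Cacna1g was -0.63 and passed (adjusted p = 0.00712), in 1 of 10 fits without 1 array (adjusted p up to 0.359). The L-type genes Cacna1c and Cacna1d, which couple activity to transcription, had fold changes of 0.19 ± 0.22 and 0.09 ± 0.19 (SE). Cacna1c stood at 10.67, 10.33, 10.31, 9.59 and 9.62 ipsilaterally, against 9.74, 9.77, 9.89, 10.38 and 9.80 contralaterally, with wide overlap. The retinal and skeletal muscle L-type genes Cacna1f and Cacna1s had means of 4.05 and 4.55, dimmer than the median row of any array. The 5 skeletal muscle markers averaged between 4.88 and 5.12 ipsilaterally and between 4.96 and 5.14 contralaterally.

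A single gene fell among the accessory subunits of each kind. Cacnb4, a cytoplasmic beta subunit and the gene of the lethargic mouse, stood at 12.14, 11.38, 11.61, 11.39 and 11.44 ipsilaterally, against 12.79, 12.48, 12.51, 12.23 and 12.61 contralaterally. The sides did not overlap, though ipsilateral array 1 came close to contralateral array 4. Its fold change was -0.93 ± 0.15 (SE, adjusted p = 0.00633), and with arrays 2 and 4 of both sides left out it did not pass (adjusted p = 0.0810). Cacnb1 and Cacnb2 had fold changes of -0.07 ± 0.11 and 0.00 ± 0.13 (SE).

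Cacna2d3, an alpha2delta subunit that promotes surface delivery of calcium channels, stood at 10.43, 11.34, 11.04, 10.94 and 11.13 ipsilaterally, against 11.98, 11.84, 11.93, 11.26 and 11.91 contralaterally. Ipsilateral array 2 lay above contralateral array 4, and the other arrays kept to their sides. The fold change was -0.81 ± 0.18 (SE, adjusted p = 0.0266), and the call held in 5 of 10 fits without 1 array (adjusted p up to 0.0754). Cacna2d1, a binding site of gabapentin, stood at 13.60, 13.72, 13.77, 13.35 and 13.13 ipsilaterally, against 13.72, 13.33, 13.52, 14.13 and 13.57 contralaterally, with no separation (-0.14 ± 0.16 SE). Cacna2d2, the gene of the ducky mouse, had a fold change of 0.01 ± 0.19 (SE), and Cacna2d4 one of -0.12 ± 0.06 (SE) at a mean of 4.90, close to the array medians.

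Cacng2, the TARP stargazin, fell with Cacna1a and Cacnb4. It stood at 11.94, 11.72, 11.84, 11.42 and 11.56 ipsilaterally, against 12.83, 12.77, 12.45, 12.53 and 12.86 contralaterally. The sides were separate, and the fold change was -0.99 ± 0.12 (SE, adjusted p = 0.00155), a 1.99-fold lower signal. Cacng3, a TARP of the same type, stood at 13.39, 13.54, 14.02, 13.28 and 13.17 ipsilaterally, against 13.87, 13.71, 13.92, 14.12 and 13.75 contralaterally. Ipsilateral array 3 was inside the contralateral range, and the fold change of -0.39 ± 0.15 (SE) did not pass (adjusted p = 0.158, and 0.0189 without ipsilateral array 3). Cacng3 passed in 1 of 10 fits without 1 array (adjusted p up to 0.298).

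The further TARPs did not pass. Cacng7 had a fold change of -0.38 ± 0.13 (SE), with ipsilateral array 1 (12.35) above every contralateral array and the other ipsilateral arrays (11.50 to 11.85) below the contralateral range of 12.12 to 12.31. Without that array the fold change of Cacng7 was -0.51 and passed (adjusted p = 0.00570), in 1 of 10 fits without 1 array (adjusted p up to 0.234). Cacng4 had a fold change of 0.22 ± 0.14 (SE). Cacng5 varied most of all 38 genes: 9.78, 6.30, 6.99, 6.36 and 6.18 ipsilaterally, against 5.93, 5.86, 5.81, 6.48 and 5.79 contralaterally. Ipsilateral array 1 carried its fold change of 1.15 ± 0.60 (SE), which was 0.48 without that array. Cacng1 and Cacng6, gamma subunits first known from skeletal muscle channels, had means of 3.90 and 4.44 and were dimmer than the median row of any array.

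Hcn2 was the lower of the 3 HCN genes measured. Hcn2 contributes to resting conductance in cortical and thalamic neurons. It stood at 10.71, 10.23, 10.12, 10.75 and 10.58 ipsilaterally, against 11.41, 11.54, 11.55, 10.90 and 11.62 contralaterally. The sides did not overlap, and contralateral array 4 was nearest to the ipsilateral range. The fold change was -0.93 ± 0.16 (SE, adjusted p = 0.00921), a 1.90-fold lower signal.

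Hcn4, the slow channel best known from the cardiac pacemaker, stood at 7.36, 6.48, 7.16, 6.39 and 6.33 ipsilaterally, against 5.84, 5.98, 5.98, 6.72 and 5.88 contralaterally. Contralateral array 4 was the only array of its side inside the ipsilateral range, and the fold change of 0.66 ± 0.24 (SE) did not pass (adjusted p = 0.137). Hcn3 had a fold change of 0.19 ± 0.17 (SE), carried by ipsilateral array 1 (6.25, the others 5.20 to 5.44, and 5.26 to 5.38 contralaterally). Hcn2 was lower ipsilaterally relative to Hcn3 (-1.12, adjusted exact p = 0.0198) and to Hcn4 (-1.59, adjusted exact p = 0.0255), and Hcn3 minus Hcn4 differed by -0.47, which did not pass (adjusted exact p = 0.0556). In all, 14 of the 15 pairs passed, and the sides overlapped in every pair with an adjusted exact p of 0.0255. With 1 array left out, all 15 differences kept their sign and between 6 and 15 pairs passed, the fewest without contralateral array 1, 2 or 5.

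**Figure D3:**
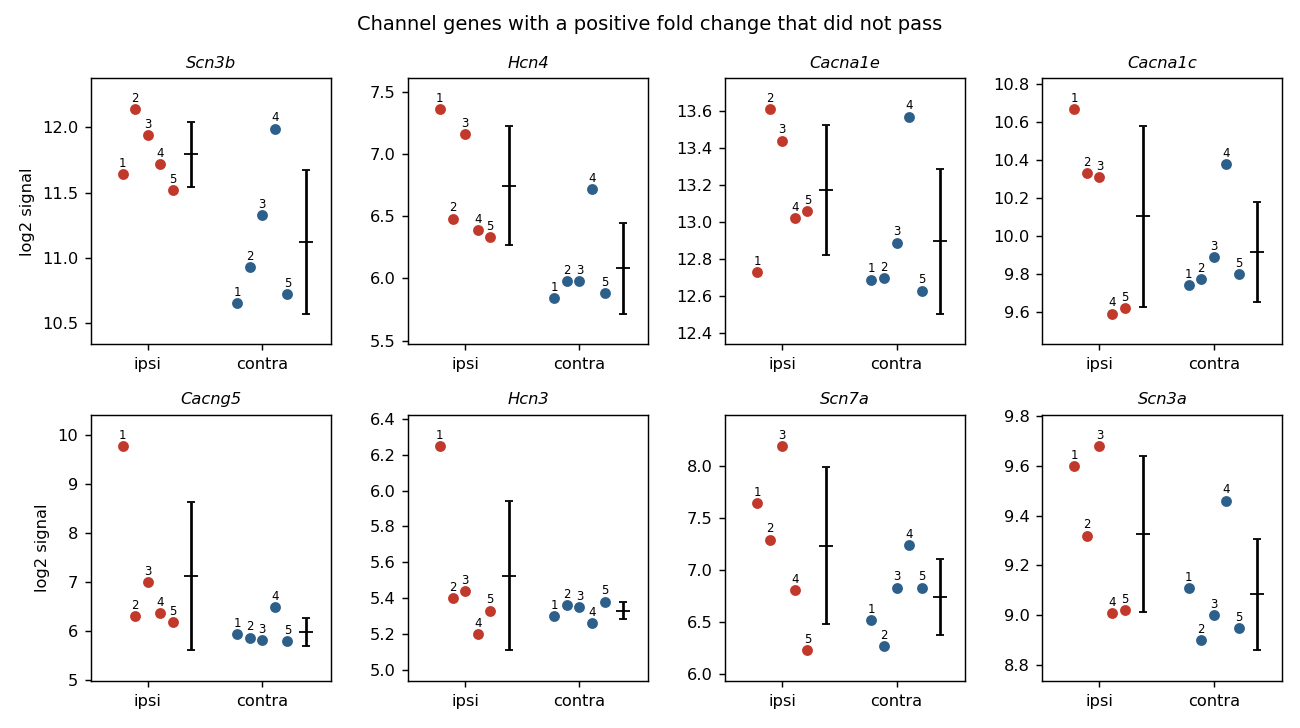
Log2 signal (vertical axis, a scale of its own in each panel) of 8 channel genes with a positive fold change that did not pass, on the 5 ipsilateral arrays (left) and the 5 contralateral arrays (right), with array numbers and mean ± SD. Contralateral array 4 stands above the rest of its side in all panels but Hcn3, and ipsilateral array 1 stands apart in Cacng5 and Hcn3. Among all 20 channel genes with a positive fold change, contralateral array 4 was the highest of its side in 11.

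Contralateral array 4 was the highest or lowest of its side in 28 of the 38 genes, while each other contralateral array was so in 3 to 18. It was the lowest in 8 of the 10 genes called lower, so that it lay on the ipsilateral side of its group there. Without contralateral array 4, 9 channel genes were lower and Scn3b was higher. Without both this array and ipsilateral array 1, a setting chosen after seeing the data, 11 were lower and Cacna1e, Hcn4 and Scn3b were higher (adjusted p = 0.0467, 0.050 and 0.0156). The part that its markers of thalamus, oligodendrocytes and choroid plexus play in these values was not tested.

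Single arrays thus decided some calls and not others. Scn1a, Scn8a, Scn4b, Cacna1a, Cacnb4, Cacng2 and Hcn2 were called in every fit that left out 1 array, with adjusted p up to 0.0457 (Scn4b). Scn2a, Cacna1i and Cacna2d3 were not. With arrays 2 and 4 of both sides left out, 6 genes were lower: Scn1a, Scn8a, Scn4b, Cacna1a, Cacng2 and Hcn2. The counts without 1 array ran from 7 to 11 lower.

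**Figure D4:**
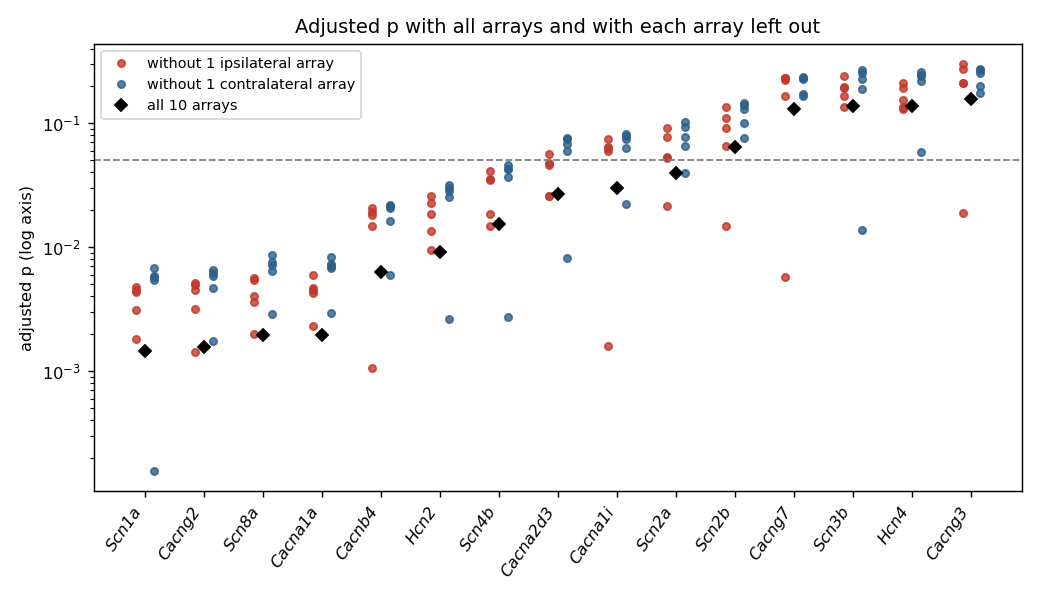
Adjusted p in limma (vertical log axis) of the 10 genes called lower and of Scn2b, Cacng7, Scn3b, Hcn4 and Cacng3, with all 10 arrays (diamonds) and with each ipsilateral or contralateral array left out (points). For 7 genes all points lie under the dashed line at 0.05.

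Genes whose products hold or tune these channels were examined in 4 lists. Of 13 measured genes of the axon initial segment and node of Ranvier, 4 were lower and 0 higher in limma (8 and 1 at an unadjusted p under 0.05), with a median fold change of -0.25. Ank3, the ankyrin that anchors sodium channels at the initial segment, stood at 11.37, 11.46, 11.51, 11.08 and 11.06 ipsilaterally, against 11.92, 11.85, 11.90, 11.75 and 11.78 contralaterally. The sides were separate and the fold change was -0.54 ± 0.10 (SE, adjusted p = 0.00943). Cntnap1, the paranodal adhesion gene, fell by 0.88 on the log2 scale (SE 0.16, adjusted p = 0.0113), the axonal contactin Cntn2 by 0.84 (SE 0.18, adjusted p = 0.0235) and the nodal adhesion gene Nfasc by 0.39 (SE 0.10, adjusted p = 0.0425). The Nfasc call held in 1 of 10 fits without 1 array, and that of Cntn2 in 4.

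Of 9 sodium channel partners measured, Fgf14 was lower and Nedd4 higher. Fgf14, an intracellular factor that binds sodium channel tails, fell by 0.58 (SE 0.14, adjusted p = 0.0383). Nedd4, a ubiquitin ligase of membrane proteins, rose by 0.26 (SE 0.07, adjusted p = 0.0499). These calls held in 3 and 2 of 10 fits without 1 array.

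Of 13 calcium channel partners, 2 were lower and 0 higher in limma (4 and 2 at an unadjusted p under 0.05), with a median fold change of 0.12. Rims1, an active zone scaffold that tethers calcium channels, stood at 11.36, 11.88, 11.85, 11.64 and 11.44 ipsilaterally, against 12.82, 12.45, 12.47, 12.67 and 12.61 contralaterally. The sides were separate, and Rims1 fell by 0.97 (SE 0.12, adjusted p = 0.00161). Cabp1, a calcium-binding modulator of these channels, fell by 0.85 (SE 0.13, adjusted p = 0.00515).

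Of 5 HCN channel partners, Pex5l was lower and 0 were higher in limma (1 and 1 at an unadjusted p under 0.05). Pex5l encodes TRIP8b, the subunit that controls HCN trafficking and gating. It stood at 9.62, 10.26, 9.87, 10.18 and 10.11 ipsilaterally, against 11.11, 10.73, 11.17, 10.48 and 10.89 contralaterally. The sides did not overlap, and the fold change was -0.87 ± 0.15 (SE, adjusted p = 0.00950), close in size to that of Hcn2. Caprin1, an RNA-binding protein gene, had a fold change of 0.19 and did not pass (adjusted p = 0.0971). Over the 4 lists, 8 partner genes were lower and 1 higher of 40 measured, beside 4.33% and 1.22% of all genes. Among all genes with a mean above 8, 11.6% were lower and 1.88% higher. The lists were chosen with earlier results of these data known, so these counts are no test of the lists. With arrays 2 and 4 of both sides left out, the calls of Rims1, Pex5l and Cntn2 held, and those of Ank3, Cntnap1 and Cabp1 ended (adjusted p = 0.108, 0.0855 and 0.0661), as did those of Nfasc, Fgf14 and Nedd4 (0.181, 0.232 and 0.129).

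Markers of cell types and regions also moved with side. Of 10 general neuron markers 3 were lower (Rbfox3, Nefl and Nefm) and 0 higher in limma (4 and 0 at an unadjusted p under 0.05), with a median fold change of -0.14. Of 9 markers of excitatory cortical neurons 4 were lower and 1 higher, and their mean was between 11.64 and 11.96 ipsilaterally and between 12.29 and 12.44 contralaterally, with no overlap. Of 9 interneuron markers 4 were lower (Pvalb, Vip, Kcnc1 and Lamp5) and 0 higher in limma (4 and 0 at an unadjusted p under 0.05), with means between 9.72 and 10.56 ipsilaterally and between 10.35 and 10.73 contralaterally. Only 5 of these 9 had a negative fold change, and the median was -0.19. Gad1, Gad2, Slc32a1, Sst and Lhx6 did not pass.

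Cortical neuron and interneuron markers were thus lower in part, in the same direction as the called channel genes. Hippocampal markers averaged between 7.31 and 8.78 ipsilaterally and between 7.15 and 7.65 contralaterally, striatal ones between 6.82 and 8.19 and between 6.51 and 6.91, and thalamic ones between 7.36 and 7.82 and between 7.58 and 8.56. Of these regional markers, 1 of 4 hippocampal genes passed as higher (Wfs1), 2 of 6 thalamic genes as lower (Ramp3 and Rora), and 0 of 6 striatal genes in limma (3 higher at an unadjusted p under 0.05), with median fold changes of 0.57, -0.29 and 0.50. Microglial and macrophage markers had means between 8.78 and 10.65 ipsilaterally and between 8.32 and 9.02 contralaterally, astrocyte markers between 10.41 and 11.40 and between 10.13 and 10.53, and oligodendrocyte markers between 8.58 and 9.52 and between 9.02 and 10.03. Endothelial and mural markers averaged between 8.37 and 9.45 ipsilaterally and between 8.26 and 8.73 contralaterally. Of the non-neuronal genes 1 astrocyte marker passed as higher (Aqp4), of 7 measured, and 0 of 8 microglial, 5 oligodendrocyte and 7 vascular markers passed in limma, with median fold changes of 0.47, 1.00, -0.64 and 0.35. At an unadjusted p under 0.05, 5 astrocyte, 7 microglial and 3 vascular markers were higher, and 1 astrocyte, 2 oligodendrocyte and 1 vascular marker were lower. Of the 16 marker calls, 6 held with arrays 2 and 4 of both sides left out (Tbr1, Nrgn, Bcl11b, Pvalb, Lamp5 and Ramp3). When single arrays were left out, all marker calls held in each fit except those of Kcnc1, which held in 4 of 10 (adjusted p up to 0.0706), and Nefl, which held in 9 (up to 0.0521). The part of these shifts in the channel values was not tested.

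**Figure D5:**
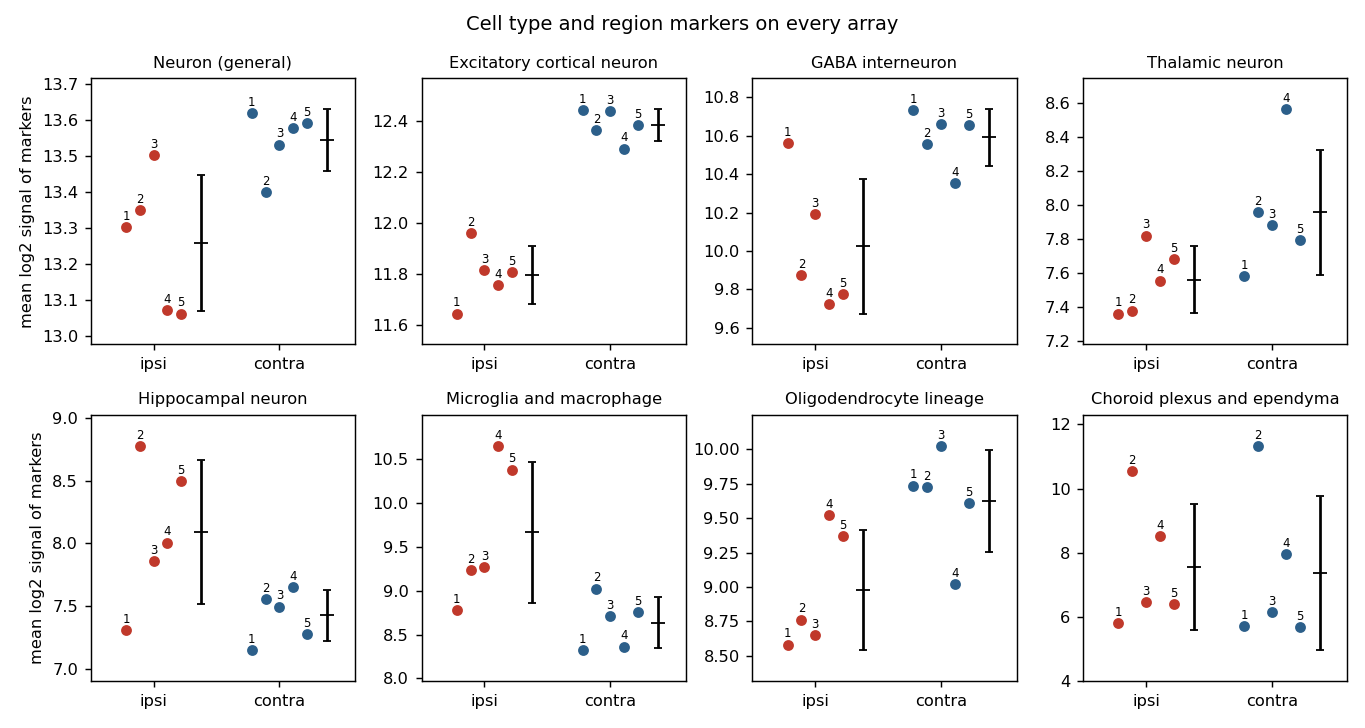
Mean log2 signal of the measured markers of 8 cell types or regions (vertical axis, a scale of its own in each panel) on the 5 ipsilateral arrays (left) and the 5 contralateral arrays (right), with array numbers and mean ± SD. Excitatory cortical markers are lower on every ipsilateral array, and choroid plexus markers are highest on the arrays numbered 2 and 4 of both sides.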

How the data were processed

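RNA of 5 ipsilateral and 5 contralateral brain samples was hybridised to 1 Affymetrix whole-transcript array each, prepared with the WT PLUS kit, per the labels' protocols. The authors deposited log2 signals in 1 column per array; the submitters' processing notes name Transcriptome Analysis Console 4.0. That the scale is log2 follows from the range of values. The background correction, normalization, summarization method and build are not given in the sources used here. Of 65956 rows, 30604 named 1 gene in the platform annotation, and symbols were updated by Entrez identifier from the RefSeq table of GRCm38.p6 (22818 rows matched). The brightest row per gene was kept (30142 genes).

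Ipsilateral minus contralateral was fitted without covariates by lmFit and eBayes (limma 3.58.1 and statmod 1.5.0 under R 4.3.3), with Benjamini-Hochberg adjustment over all genes. In simulated data with the real means and spreads, 59.1%, 88.1% and 97.0% of genes changed by 0.5, 1 and 2 on the log2 scale were recovered among 30142. There, 200 genes were changed, and 12 unchanged genes were called. Each gene was drawn independently. Deviations shared by many genes on 1 array were not simulated, so the rates may not hold for the real arrays. Exact permutation tests used scipy 1.17.1. The number of arrays limits the precision. Labels give no batch or scan date, and none was tested. The labels call replicates biological and do not name animals, so p-values measure the spread between these samples.

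The channel genes, the families of them compared in pairs, the partner lists and the marker lists were chosen with earlier results of these data known. Genes given array by array were the called ones, and in each class the gene with the largest moderated statistic and the brightest one. Scn3b, Hcn4 and Cacng5 were added after their values had been seen. In partner lists, called genes and the 2 with the largest statistics were named. Alternatives were a block for the replicate number, median and quantile scaling, filters on the dimmest 25% and 50% of genes, averaging a gene's rows, testing all rows, trended and robust variance, array weights, a threshold of 0.01, each array left out, and arrays 2 and 4 of both sides left out. Leaving out ipsilateral array 1 with contralateral array 4 was added after seeing the data.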

Additional observations from a re-analysis of the deposited data

Results flagged for a closer look

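In 10 of 76 sets of 5 arrays (38 channel genes on each side), a single array lay farther from the rest than Dixon's criterion for 5 samples allows (critical value 0.71), where chance gives about 1 in 20 sets and the genes are not independent. Contralateral array 4 accounted for 7 of the 10. It was low in Scn1a (11.75) and Cacna2d3 (11.26), and high in Scn9a (5.68), Cacna1c (10.38), Cacna1e (13.57), Cacng5 (6.48) and Hcn4 (6.72). Ipsilateral array 1 was high in Cacng5 (9.78) and Hcn3 (6.25). Contralateral array 2 was low in Cacnb1 (10.62).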

How the results depend on the processing

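The 10 channel genes called lower kept a negative fold change under all 22 alternatives. Their count was 6 at a threshold of 0.01 and 6 with arrays 2 and 4 of both sides left out, and without 1 array it ran from 7 to 11. The count of higher channel genes was 0 to 1 without 1 array, and 3 without ipsilateral array 1 and contralateral array 4 together. Of 330 values of the 15 channel genes named by the rule, 0 reversed, 36 fell short of a threshold that the value with all arrays passed, and 6 newly passed it. The replicate block, filters, mean of rows, testing of all rows, trended variance and stricter threshold leave these fold changes as they are. No sign could reverse under those settings. Among other channel genes signs did change, as for Cacna1d (0.09, and -0.10 without ipsilateral array 1).

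Counts over all genes moved more. Genes lower numbered 1305, and 769 with the replicate block, 2623 with arrays centred on their medians, 289 with arrays 2 and 4 left out, 537 at a threshold of 0.01, and 740 to 1607 without 1 array. Genes higher numbered 369, and 177 with the replicate block, 232 with centred arrays, 198 with every row tested, 656 with array weights, 77 with arrays 2 and 4 left out, 688 without ipsilateral array 1 and contralateral array 4, 47 at 0.01, and 111 to 760 without 1 array. Higher genes made up 22% of calls, and 8.13% with centred arrays. The causes were not tested.

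The deviations of same-numbered arrays correlated at 0.26, 0.25, -0.04, -0.40 and -0.03 for numbers 1 to 5, and only ipsilateral array 1 correlated best with its own number. The numbers were therefore not taken to pair the samples in the main fit. Yet choroid plexus and ependymal markers were highest on the arrays numbered 2 and 4 of both sides, so whether the numbers pair the samples was not settled. The labels do not say whether both sides came from the same animals. With the replicate block 7 channel genes were lower and the calls of Scn2a, Cacna2d3 and Hcn2 ended (adjusted p = 0.0998, 0.0617 and 0.0535). Of the partner genes, the calls of Pex5l, Nfasc, Cntn2, Fgf14 and Nedd4 ended (0.0630, 0.0549, 0.0887, 0.0721 and 0.109), and of the markers those of Nefl and Bcl11b (0.0629 and 0.0553). Pairs of genes could not pass the exact test with 3 arrays per side. The mean of rows changed no channel value, since each had 1 row.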
